A study of Mus musculus with 6 samples.

Results

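The 7 loci examined hold textbook target genes of the Wnt/β-catenin pathway, and they were read in the peak lists of a chromatin immunoprecipitation sequencing (ChIP-seq) study of mouse embryonic fibroblasts (MEFs). The genes were Axin2, Dkk1, Lef1, Tcf7, Sp5, Myc and Ccnd1. Each locus was a fixed window in the mouse build mm9, and its members were all listed peaks that overlapped the window by at least 1 bp. The windows were Axin2 at chr11:108778000-108814000, Lef1 at chr3:130810000-130931000, Tcf7 at chr11:52093000-52133000, Ccnd1 at chr7:152112000-152129000, Myc at chr15:61814000-61825000, Dkk1 at chr19:30617000-30627000 and Sp5 at chr2:70309000-70319000. Together they held 16 of the 38760 peaks listed in the 6 libraries. These were 6 H3K4me3 peaks in treated cells, 8 H3K4me3 peaks in untreated cells, 2 H3K27me3 peaks in untreated cells, and none in treated H3K27me3 or in either input list.

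MEFs are primary cells cultured from the connective tissue of embryos, here of the C57BL/6 strain. One group carried the label 6TCF treated on day 6, a chemical combination whose components the labels do not spell out, and the other was the untreated control on day 6. The growth protocol, given alike for both, describes a serum-containing medium with basic fibroblast growth factor, and how many embryos went into a library is not given in the sources used here. Each condition has 1 library titled H3K4me3, 1 titled H3K27me3 and 1 of input DNA (sheared chromatin without precipitation). No contrast between conditions is therefore replicated, and the treatment could not be tested. The titles were followed for the names of the marks, although the antibody field gives H3K4me2 for the libraries titled H3K4me3 and H3K4me1 for those titled H3K27me3. Labelled cell types could not be set against marker genes, because no gene annotation of mm9 was used here.

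In the canonical Wnt pathway, a secreted Wnt ligand that binds its receptors stops the destruction of β-catenin, which then enters the nucleus and joins DNA-binding factors of the TCF/LEF family at target genes. Several targets feed back on the pathway: Axin2 is a scaffold of the complex that destroys β-catenin, and Dkk1 is a secreted protein that blocks the Wnt co-receptors. H3K4me3 is a histone mark of active or poised promoters, and H3K27me3 is a mark laid down by Polycomb complexes at silent or poised genes. The lists give positions only, so a peak's presence and its width (the number of bases from its first to its last position) are the only quantities. Both depend on sequencing depth, antibody yield and calling threshold, none of which the files give, and an empty window says nothing certain about absence of the mark.

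TCF/LEF proteins recognise sequences built around CTTTG, with CTTTGAT as the fuller form. The 250 bases before the annotated start of 4 of the genes are printed here. The H3K4me3 lists differ most at Sp5, Axin2 and Lef1. Dkk1 is printed beside them as a locus with a smaller difference, its treated peak being 1.20-fold wider. They come from the RefSeq promoter table of build GRCm38.p6, matched by symbol, and their coordinates are of that build and cannot be set against the mm9 peaks. The table had entries for 5 of the 7 genes. Myc and Ccnd1 were not matched. The Tcf7 entries are not printed because they held no match to the motif. The treated Tcf7 peak was 1.19-fold wider, about as much as that of Dkk1. Dkk1 was thus chosen over Tcf7 with the motif matches known. Lef1 has several entries, of which the one furthest upstream is shown, and the Axin2 entry lies inside the annotated gene, which also has a start further upstream. Capitals mark CTTTG in either orientation.
Sp5, chr2:70474673-70474922, plus strand: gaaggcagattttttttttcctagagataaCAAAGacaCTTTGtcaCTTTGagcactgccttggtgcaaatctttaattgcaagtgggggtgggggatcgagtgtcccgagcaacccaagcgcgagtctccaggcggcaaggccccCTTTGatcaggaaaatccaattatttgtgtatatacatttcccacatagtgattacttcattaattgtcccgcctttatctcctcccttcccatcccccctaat
Axin2, chr11:108920099-108920348, plus strand: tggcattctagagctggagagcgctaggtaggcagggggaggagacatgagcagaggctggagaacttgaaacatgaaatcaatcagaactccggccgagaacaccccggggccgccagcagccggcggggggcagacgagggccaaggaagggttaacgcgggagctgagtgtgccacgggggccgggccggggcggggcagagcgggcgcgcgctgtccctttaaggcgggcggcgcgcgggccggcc
Lef1, chr3:131110047-131110296, plus strand: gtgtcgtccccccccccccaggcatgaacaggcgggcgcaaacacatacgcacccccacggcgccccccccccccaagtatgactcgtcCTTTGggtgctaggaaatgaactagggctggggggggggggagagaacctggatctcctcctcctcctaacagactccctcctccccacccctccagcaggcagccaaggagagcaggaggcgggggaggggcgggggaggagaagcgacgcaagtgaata
Dkk1, chr19:30549497-30549746, minus strand: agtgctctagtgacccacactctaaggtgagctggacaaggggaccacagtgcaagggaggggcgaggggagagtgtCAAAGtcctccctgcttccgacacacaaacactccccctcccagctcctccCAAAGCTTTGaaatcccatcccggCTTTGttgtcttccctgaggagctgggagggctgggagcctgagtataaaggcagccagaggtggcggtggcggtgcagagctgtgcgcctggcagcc

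The motif CTTTGAT was searched on both strands, like the shorter forms. Among the 9 entries of the 5 matched genes, printed or not, only that of Sp5 held it, 104 bases before the start. Of all 32851 stretches of this length on file, 3.21% held it. The shorter CTTTGA, which includes every CTTTGAT, was found at 2 places in Sp5 and at 2 places in Dkk1, and 13.8% of all stretches held it. The core CTTTG, which includes both longer forms, was found at 4 places in Sp5, at 4 places in Dkk1 and at 1 place in the printed Lef1 entry, and 48.6% of all stretches held it. Of the Lef1 entries not printed, the one furthest downstream held CTTTGA at 2 places and CTTTG at 3, and the others held CTTTG only, at 2 places and at 1. The Axin2 stretch held none of the 3 forms, nor did either of the 2 Tcf7 entries. It had 24 CG dinucleotides, more than 88.0% of all stretches, while Sp5 and Dkk1 had 6 each, which is the median over all stretches, and Lef1 had 11. A match of letters is a description and not a bound site.

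H3K4me3 was listed at all 7 loci in untreated cells and at 6 of 7 in treated cells, the exception being Axin2. Sp5 differed most in width, with a peak 2.97-fold wider in treated cells. Lef1 had 1 peak in treated cells, wider than its untreated partner, and a second peak in untreated cells only. At Tcf7, Dkk1, Ccnd1 and Myc each condition had a single peak at the same place, with widths within 1.20-fold of each other. H3K27me3 was listed at Axin2 and Lef1 in untreated cells and at none of the 7 loci in treated cells. The H3K4me3 peaks of the loci summed to 28957 bp in the treated list and to 28664 bp in the untreated list, so the total hid opposite differences at single loci.

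**Figure D1:**
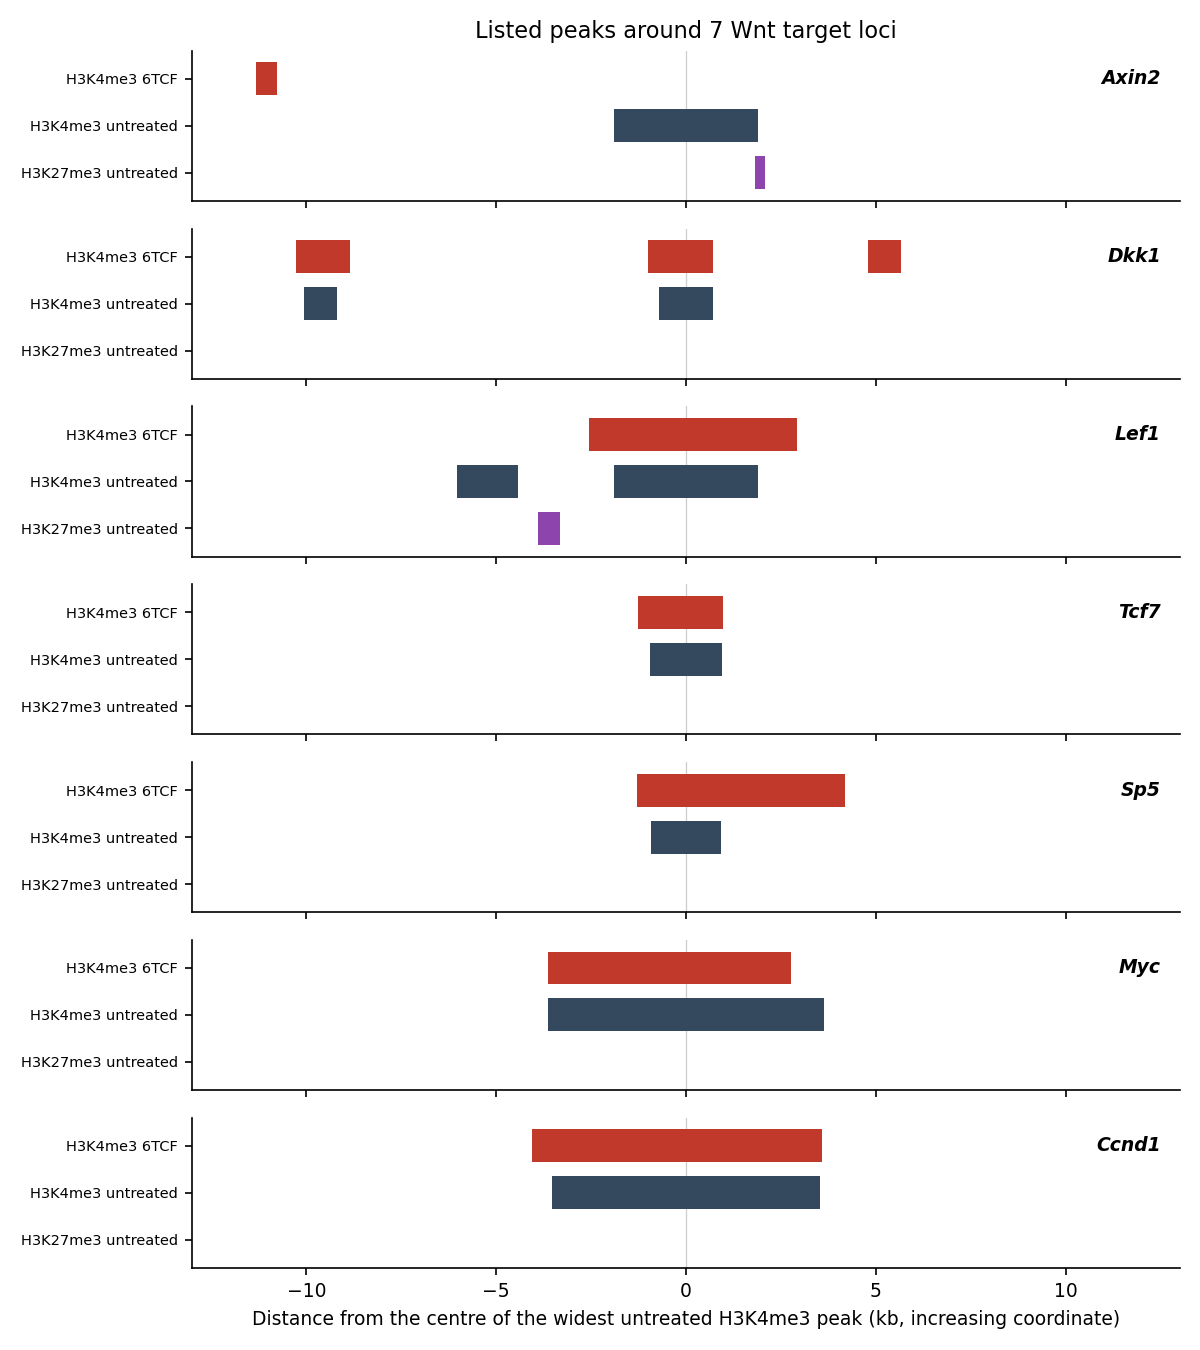
Listed H3K4me3 peaks in 6TCF-treated (red) and untreated (dark blue) cells and H3K27me3 peaks in untreated cells (purple) at the 7 loci, against distance in kb from the centre of the widest untreated H3K4me3 peak of the locus, with those neighbouring peaks outside the windows that fall within the axis. Axin2 has no treated peak over its untreated one, the treated Sp5 peak reaches further to the right, and the only H3K27me3 peaks are at Axin2 and Lef1.

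Axin2, the feedback inhibitor that is often read as a general reporter of the pathway, had an untreated H3K4me3 peak of 3796 bp at chr11:108781065-108784860 and no treated peak in its window. The gene lies on the plus strand in RefSeq, and this peak begins 3065 bp inside the low-coordinate edge of the window. The untreated peak was wider than 88.0% of its list. The nearest treated H3K4me3 peaks were a 557 bp peak 8.87 kb below it and a 704 bp peak 87.9 kb above it, which leaves 101 kb without a treated peak. An untreated H3K27me3 peak of 284 bp at chr11:108784767-108785050 covered the last 94 bp of the H3K4me3 peak and ran past its end. No treated H3K27me3 peak lay nearer than 87907 bp.

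Axin2 and Lef1 each held 1 of the 2 untreated H3K4me3 peaks, out of 8, that were in the untreated list only. That of Lef1 had 19 of its 1606 bp in the window and would not count with at least 50% of the peak required there. Of all untreated H3K4me3 peaks 4.73% (95% Wilson interval 4.42 to 5.06, counting error only) were in the untreated list only. Such peaks are mostly narrow, with a median width of 838 bp, and 30 of the 812 were at least as wide as that of Axin2. Among all untreated peaks of 3000 to 5000 bp, 15 of 3541 had no treated partner, a share of 0.424% (0.257 to 0.698). None of the 6 treated H3K4me3 peaks of the loci, 1707 to 7637 bp wide, was in the treated list only, against 10.2% of the whole treated list. That share was 51.1% up to 1000 bp and 7.45% at over 1000 to 2000 bp. It was 0.527% to 1.43% in the classes from over 2000 to 7000 bp and 12.2% above.

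A partner of the Axin2 peak could also be missing for being too wide. The widest treated peak in the list was 9030 bp and the widest untreated one 9151 bp, so a treated Axin2 peak more than 2.38 times as wide as the untreated one would exceed every listed peak. The share of untreated peaks without a treated partner was 0.356% at over 3000 to 4000 bp and rose to 10.2% (5.78 to 17.3) above 7000 bp. Of the 3736 paired untreated peaks within 1.3-fold of the Axin2 width, 6 had a treated partner at least 2-fold wider, and the widest treated partner of the 3736 was 7925 bp. Partners above the widest listed peak could not appear in that count. Whether the lists have an upper limit of width was not tested. Loss of the mark at Axin2, a wider unlisted peak and a mark kept below the calling threshold cannot be told apart from these files. A difference of depth or antibody yield between the libraries cannot be told apart from them either.

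**Figure D2:**
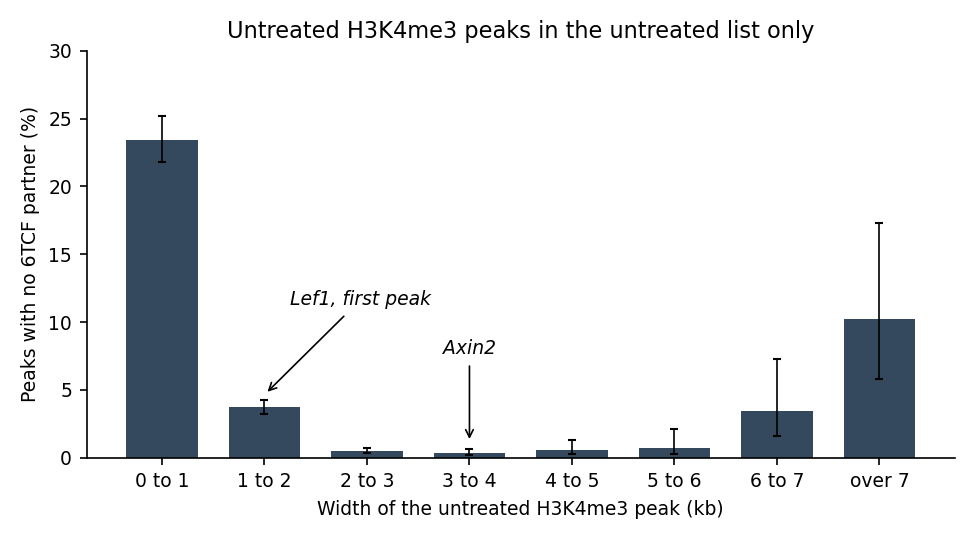
Share (%) of untreated H3K4me3 peaks with no overlapping 6TCF peak, by width class in kb, with 95% Wilson intervals as bars. The share is 23.4% up to 1 kb, 0.356% in the class that holds Axin2 and 10.2% over 7 kb; the arrows name the classes of the 2 locus peaks in the untreated list only.

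Dkk1, the secreted co-receptor antagonist, had a treated H3K4me3 peak of 1707 bp at chr19:30622920-30624626 and an untreated peak of 1420 bp at chr19:30623201-30624620. The treated peak was 1.20-fold wider (log2 ratio 0.27), a ratio reached or passed by 16.3% of all 16153 pairs of treated and untreated H3K4me3 peaks that overlap each other and no other peak of the mark. Dkk1 lies on the minus strand in RefSeq. Among the 3872 pairs with an untreated width within 1.3-fold of that at Dkk1, 21.2% had a ratio as high. The upstream edges of the 2 peaks were 6 bp apart, and the treated peak reached 281 bp further on the downstream side. Both were narrow for their lists, wider than 38.2% of treated and 27.1% of untreated peaks. No H3K27me3 or input peak was listed in the window. Just outside it lay a treated-only H3K4me3 peak of 882 bp, 1697 bp past the high edge, and a pair of 1410 bp treated and 849 bp untreated, 1941 and 2289 bp past the low edge.

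Lef1 and Tcf7 encode TCF/LEF factors that are also targets of the pathway. Lef1 had a treated H3K4me3 peak of 5476 bp at chr3:130811885-130817360 and an untreated one of 3773 bp at chr3:130812552-130816324, lying wholly inside the treated one. The treated peak was 1.45-fold wider (log2 ratio 0.54), and 5.84% of all pairs had a ratio as high. Among the 3783 pairs whose untreated width was within 1.3-fold of that at Lef1, 1.72% did. The gene lies on the plus strand, and the treated peak reached 667 bp further upstream and 1036 bp further downstream. Both of its edges lay outside the untreated ones by more than 600 bp, the average length to which the chromatin had been sheared. In 2.79% of all pairs at least 1 treated edge lay 1036 bp or more past the untreated one. Edge positions also depend on depth, antibody yield and calling threshold, and whether the Lef1 difference is technical was not tested.

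The untreated list had a second H3K4me3 peak at Lef1, of 1606 bp at chr3:130808413-130810018, which entered the window by 19 bp and was therefore the member nearest to the edge of the rule. It had no treated partner, and the treated Lef1 peak began 1866 bp beyond its end. Of untreated peaks of 1000 to 2000 bp 3.72% were in the untreated list only. Between the 2 untreated H3K4me3 peaks, which stood 2533 bp apart, lay an untreated H3K27me3 peak of 569 bp at chr3:130810552-130811120. It was 533 bp from the first and 1431 bp from the second untreated H3K4me3 peak, and 764 bp from the treated one. It was wider than 91.1% of the untreated H3K27me3 list. With the second peak included, the untreated H3K4me3 peaks summed to 5379 bp, close to the 5476 bp of the treated peak.

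Tcf7, whose product is also called TCF-1, had its only H3K4me3 peaks at the low-coordinate end of its window. The treated peak measured 2253 bp at chr11:52095244-52097496 and the untreated one 1899 bp at chr11:52095567-52097465. The treated peak was 1.19-fold wider (log2 ratio 0.25), and 17.4% of all pairs had a ratio as high, as did 12.8% of the 5567 pairs with an untreated width within 1.3-fold of its own. Both peaks lay 35.5 kb from the high-coordinate edge of a 40.0 kb window, and RefSeq places Tcf7 on the minus strand. Without an mm9 annotation the position of the Tcf7 start relative to these peaks is not known here. No other H3K4me3 peak was listed in the window in either condition, and no H3K27me3 or input peak was listed anywhere in the window.

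Sp5, a zinc-finger transcription factor and direct Wnt target, had a treated H3K4me3 peak of 5479 bp at chr2:70311445-70316923 and an untreated one of 1847 bp at chr2:70311825-70313671. The treated peak covered the untreated one entirely and was 2.97-fold wider (log2 ratio 1.57). Only 34 of all 16153 pairs, 0.210%, had a ratio as high. Among the 5422 pairs whose untreated width was within 1.3-fold of that at Sp5, 5 did, Sp5 included. The untreated peak stood near the middle of its list, wider than 40.5% of it, and the treated peak was wider than 98.0% of the treated list. Almost all of the difference was on 1 side: the gene lies on the plus strand, and the treated peak reached 380 bp further upstream and 3252 bp further downstream. A treated edge lay as far past the untreated one in 15 pairs of the whole series, Sp5 among them. The window held no H3K27me3 or input peak in either condition. The printed upstream stretch of Sp5 holds CTTTGAT, as did 3.21% of all stretches. That stretch could not be placed on the mm9 peaks, and a relation of the motif to the peak width was not tested.

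**Figure D3:**
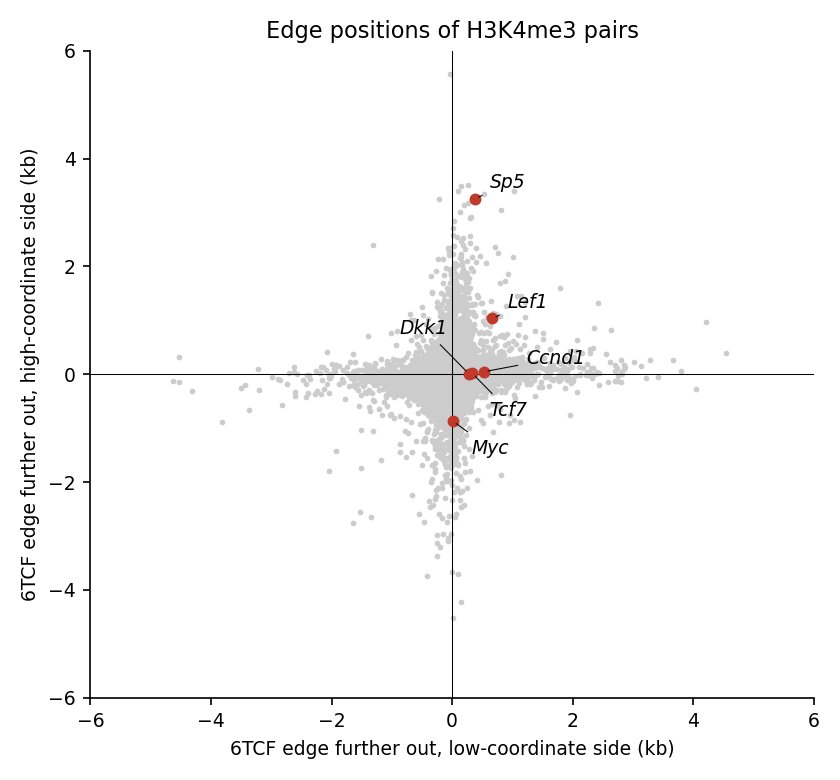
Distance in kb by which the 6TCF peak reaches past the untreated peak on the low-coordinate side (x axis) and on the high-coordinate side (y axis), for all H3K4me3 pairs (grey) and the 6 locus pairs (red). Negative values mean that the untreated peak reaches further; Sp5 lies 3252 bp out on the high-coordinate side and Myc falls below 0 there.

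Myc and Ccnd1, a growth-promoting transcription factor and the G1 cyclin D1, had some of the widest H3K4me3 peaks of both lists. At Myc the treated peak measured 6405 bp at chr15:61814879-61821283 and the untreated one 7260 bp at chr15:61814893-61822152. Myc was the only one of the 6 pairs that was narrower in treated cells (log2 ratio -0.18, 1.13-fold wider in untreated), and 20.9% of all pairs had a ratio as low. Among the 383 pairs with an untreated width within 1.3-fold of that at Myc, 46.2% had a lower ratio. The low edges were 14 bp apart, while the untreated peak reached 869 bp further on the high-coordinate side. At Ccnd1 the treated peak measured 7637 bp at chr7:152122200-152129836 and the untreated one 7063 bp at chr7:152122727-152129789. The treated peak was 1.08-fold wider (log2 ratio 0.11), and 29.4% of all pairs had a ratio as high, against 8.78% of the 444 pairs with an untreated width within 1.3-fold of its own. It reached 527 bp further on the low side and 47 bp on the high side. Both Ccnd1 peaks ran past the high edge of the window, by 836 and 789 bp. Of untreated peaks over 7000 bp, 10.2% had no treated partner. Partners above the widest listed treated peak, 9030 bp, could not appear among the 383 and 444 pairs, and the effect on their shares was not tested.

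**Figure D4:**
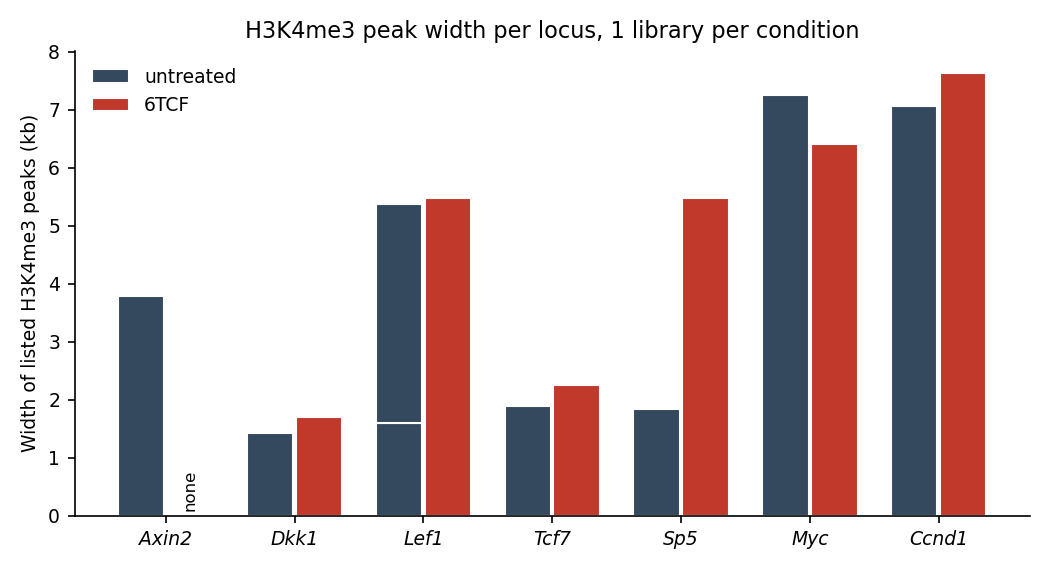
Width in kb of the listed H3K4me3 peaks at each locus in untreated (dark blue) and 6TCF-treated (red) cells, 1 library per condition and therefore without error bars. A white line divides the 2 untreated Lef1 peaks, and "none" marks the locus without a listed treated peak, Axin2.

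Widths of the treated peaks ran from 1707 bp at Dkk1 to 7637 bp at Ccnd1, and those of the untreated peaks from 1420 bp at Dkk1 to 7260 bp at Myc. In untreated cells only 78 listed peaks were wider than that of Myc and 103 wider than that of Ccnd1. In treated cells 146 were wider than that of Myc and 41 wider than that of Ccnd1. Dkk1 had the narrowest and Ccnd1 and Myc the widest paired peaks in both conditions. Sp5 stood next to Dkk1 and Tcf7 in the untreated order and next to Lef1 in the treated one, where the 2 differed by 3 bp.

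Among the 6 loci with a pair, 5 pairs were wider in treated cells, while 46.8% of all pairs were. The median log2 ratio of the 6 was 0.26, against -0.02 over all pairs, whose standard deviation was 0.33. That spread is over loci between 1 treated and 1 untreated library, and with no replicate none of the 6 ratios, Sp5 and Lef1 included, can be separated from a difference between libraries. A difference of at least 1.5-fold in favour of treated cells was found in 1 of the 6, Sp5, against 5.03% of all pairs, and 1 of the 6 was at least 2-fold wider, against 1.13%. None was 1.5-fold or 2-fold wider in untreated cells, where the shares over all pairs were 2.58% and 0.520%. Lef1, at 1.45-fold, lay just short of the lower threshold.

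**Figure D5:**
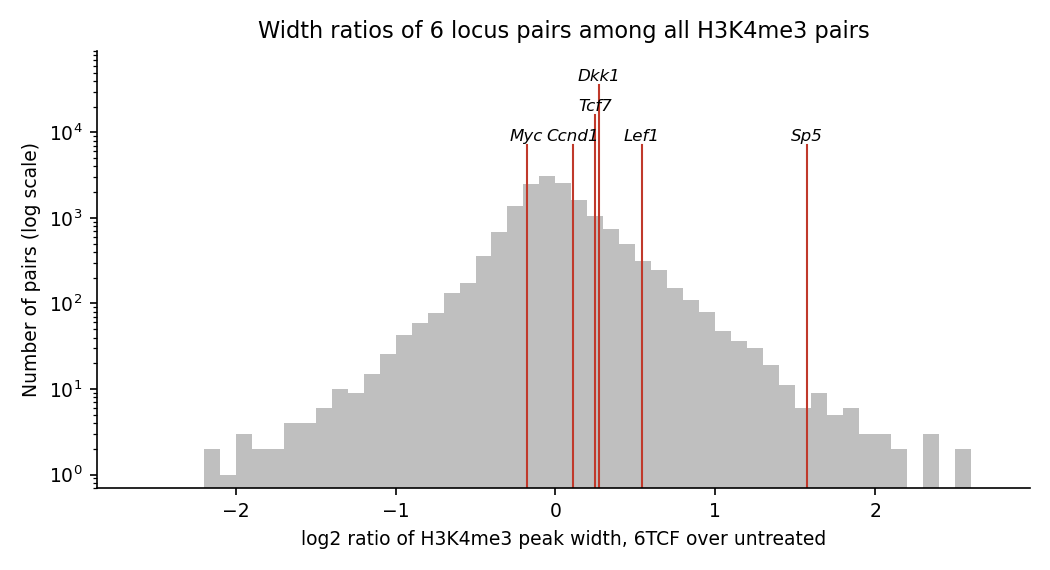
Number of H3K4me3 pairs (log scale) by log2 ratio of 6TCF over untreated width, for all 16153 pairs (grey), with the 6 locus pairs marked by red lines. Myc lies at -0.18, Ccnd1, Tcf7 and Dkk1 between 0.11 and 0.27, Lef1 at 0.54 and Sp5 at 1.57.

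For H3K27me3, both listed peaks of the loci were in the untreated list only. Of all untreated H3K27me3 peaks 80.5% were, and the treated list was shorter, with 821 against 1242 peaks, so this count is near the background. Neither peak overlapped an input peak. The H3K27me3 lists were not far from the input lists, which held 604 treated and 740 untreated peaks. Median widths were 149 bp treated and 211.5 bp untreated for H3K27me3, and 146 and 142 bp for input. The Axin2 H3K4me3 peak was the only one of the 8 untreated H3K4me3 peaks that overlapped an untreated H3K27me3 peak, and 2.81% of the whole untreated H3K4me3 list did. None of the 6 treated H3K4me3 peaks overlapped a treated H3K27me3 peak, against 1.36% of the whole treated list. Leaving out peaks over input, 800 H3K4me3 peaks were in the untreated list only, and 7 of them, Axin2 included, overlapped an untreated H3K27me3 peak (0.875%, 0.424 to 1.80). The Lef1 H3K27me3 peak overlapped no H3K4me3 peak but had one within 2000 bp, as did 27.6% of such untreated H3K27me3 peaks. Both peaks, at 284 and 569 bp, were shorter than the average sheared fragment.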

How the data were processed

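The members and the comparisons were chosen with earlier results of these data known. Each library has 1 deposited peak list, whose rows hold the chromosome with both end positions and a sign that never varies, without score, height or read number. Per the submitters' processing notes, mm9, HOMER, MACS 1.4.3, Bowtie2 2.2.5 and CASAVA 1.7 were used, in unstated roles. Threshold, control and caller of each list were not given in the sources used here, and depth is unknown. Starts were read as 0-based and are printed 1-based. Windows were taken from the stated mm9 coordinates, and every gene of the list is named. Overlaps of at least 1 bp, pairs, widths and 95% Wilson intervals were computed with scipy 1.17.1 and numpy 2.4.6 under Python 3.11.15. Calls of missing peaks and widened pairs were tested on a copy of the untreated H3K4me3 list with peaks removed or widened. Counts of peaks without overlap in another list were checked against bedtools 2.31.1. A pair is 1 treated and 1 untreated peak with overlap between them and with none else of the mark. Shares over whole lists describe 2 libraries and are not tests. Gene strand and length come from RefSeq tables of GRCm38.p6, and no coordinate was converted. Other genes of the pathway were not evaluated, because no annotation of mm9 was used here. Alternatives were minimum overlaps, windows, width minimums, joined peaks, input removal and lists of equal length, the last added after the lists were seen.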

Additional observations from a re-analysis of the deposited data

How the results depend on the processing

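The number of loci with H3K4me3 (6 treated, 7 untreated) and of H3K27me3 peaks (0 treated, 2 untreated) held under each alternative run for them. The number of H3K4me3 peaks, 6 treated and 8 untreated, became 6 and 7 with at least 50% of the peak required in the window, and 8 and 9 with windows extended by 5000 bp. The log2 ratio of summed H3K4me3 width over the 7 windows, 0.01, became 0.10 with bases inside the windows only and 0.08 with windows extended by 5000 bp. With an overlap of at least 50% of the peak required for sharing, 1 treated peak in place of 0 was in the treated list only, that of Sp5, which its untreated partner covers by less, and Sp5 then formed no pair, which left 4 of 5 pairs wider in treated cells. For Lef1 the log2 ratio of summed width was 0.03 with the second untreated peak counted whole and 0.53 with bases inside the window only. For Dkk1 it went from 0.27 to 0.82 with the extended window. No result reversed. Depth is unknown, so its effect on presence and width cannot be given. No paired analysis was possible because each group has 1 library, and for the same reason no library could be left out.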

Other observations

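The Axin2 peak is 1 of 7 H3K4me3 peaks in the untreated list only that overlapped an untreated H3K27me3 peak and no input peak, and the other 6 are given here by position, chosen after their values were seen. The widest of the 7 lay at chr3:45179851-45186048, with 6198 bp and an H3K27me3 peak of 265 bp wholly inside it, and the nearest treated H3K4me3 peak was 299 kb away. Axin2 was second in width. The third, at chr15:76347964-76350581, measured 2618 bp with an H3K27me3 peak of 726 bp inside it, and a treated H3K4me3 peak lay 1.80 kb away. The remaining 4, at chr4:133806807-133808112, chr11:82765270-82766064, chr12:102137183-102137871 and chr13:55522396-55523027, measured 1306, 795, 689 and 632 bp. Their H3K27me3 peaks measured 762, 439, 242 and 337 bp, of which 524, 340, 242 and 4 bp overlapped the H3K4me3 peak.

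Within 20.0 kb of the windows, the treated list held 3 more H3K4me3 peaks without an untreated partner beside that of Dkk1, namely 557 bp at Axin2, 753 bp at Sp5 (14.2 kb below the window) and 968 bp at Ccnd1 (18.4 kb below). The untreated list held none there without a treated partner. Up to 1000 bp of width, 51.1% of treated and 23.4% of untreated peaks had no partner.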
